A study of Mus musculus with 30 samples.

Results

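The RNA of 8 long noncoding genes that host small nucleolar RNAs (snoRNAs) was examined in sorted mouse microglia: *Gas5*, *Snhg1*, *Snhg3*, *Snhg5*, *Snhg6*, *Snhg8*, *Snhg12* and *Snhg15*. They were chosen as a named list of host genes and found by symbol among the 47643 genes of the expression table, and all 8 of 8 passed the filter on low values that left 16897 genes for testing. The study asked what the loss of *Bin1*, an Alzheimer's disease risk gene that encodes a membrane-bending adaptor protein, does to microglial RNA. Microglia were sorted as CD11b+ CD45med cells from the brains of 3 month-old mice, and 1 library was made per mouse, each with its own mouse number. WT mice carried 1 floxed *Bin1* copy and no Cre (Bin1 wt/flox), Het mice carried 1 floxed copy and Cx3Cr1-Cre (Bin1 wt/flox, Cre+), and Homo mice carried both copies floxed with Cx3Cr1-Cre (Bin1 flox/flox, Cre+). There were 5 male WT, 6 male Het, 5 male Homo, 4 female WT, 5 female Het and 5 female Homo libraries. All 30 mice thus had at least 1 floxed copy. The paper's strain name places Cre in a targeted allele of *Cx3cr1*, so Het and Homo mice also carried an altered *Cx3cr1* copy. WT mice lacked this allele. Effects of Cre, of the altered *Cx3cr1* copy and of losing 1 *Bin1* copy therefore cannot be told apart. Cx3Cr1-Cre is expressed in microglia and in other Cx3cr1-expressing myeloid cells. The mouse numbers in the labels, which end each library name, form an early range, which ends with WT-F-0122, and a late one, which begins with WT-M-0176. Of the 6 early mice, 5 were male Het or Homo (Het-M-0100, Het-M-0108, Homo-M-0093, Homo-M-0097 and Homo-M-0109) and 1 was female WT (WT-F-0122), and all 5 male WT mice were late. What the number ranges stand for is not given in the sources used here.

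A snoRNA host gene is transcribed and spliced like an mRNA gene, and the snoRNAs are cut out of its introns. Box C/D snoRNAs guide ribose methylation and box H/ACA snoRNAs guide pseudouridylation of ribosomal RNA. The exons that are left are joined and exported, but hold no long conserved reading frame, and in several hosts the spliced RNA meets ribosomes and is removed by nonsense-mediated decay (NMD), so that its level follows both transcription and decay. Many hosts start with a terminal oligopyrimidine (TOP) run, a C followed by pyrimidines, which they share with ribosomal protein genes. *Malat1* and *Neat1*, by contrast, are long noncoding RNAs kept in the nucleus, *Malat1* in nuclear speckles and *Neat1* as the scaffold of paraspeckles.

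The annotated start sites are shown because this promoter type is known for snoRNA hosts. The RefSeq table matched 7 of the 8 members, with 8 starts, and *Snhg6* was not matched. Each line gives 60 bases of the strand of the gene on GRCm38.p6, of which the first 30 precede the RefSeq start, and capitals mark a run of a C followed by at least 4 bases that are C or T and that begins within 10 bases of the start.
Gas5 (second of 2 starts), chr1:161035136-161035195, plus strand: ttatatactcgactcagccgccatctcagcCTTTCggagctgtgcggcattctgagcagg
Snhg1, chr19:8723457-8723516, plus strand: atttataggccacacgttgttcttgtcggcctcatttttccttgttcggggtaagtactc
Snhg3, chr4:132353657-132353716, minus strand: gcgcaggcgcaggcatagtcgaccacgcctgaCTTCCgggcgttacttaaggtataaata
Snhg5, chr9:88522868-88522927, minus strand: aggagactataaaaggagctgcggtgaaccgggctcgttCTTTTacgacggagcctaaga
Snhg8, chr3:123508307-123508366, minus strand: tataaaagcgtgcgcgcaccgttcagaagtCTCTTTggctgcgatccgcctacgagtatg
Snhg12, chr4:132308648-132308707, plus strand: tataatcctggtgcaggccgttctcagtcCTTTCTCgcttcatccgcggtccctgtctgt
Snhg15, chr11:6528731-6528790, minus strand: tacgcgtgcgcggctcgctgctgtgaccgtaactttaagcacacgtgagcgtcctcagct
The run was found in 5 of the 7 members and not in *Snhg1* or *Snhg15*. The first *Gas5* start held none, so 5 of the 8 starts (62.5%) had it, beside 30.7% of all starts in the table. It began exactly at the annotated start in *Gas5* and *Snhg8*, and 1 base before it in *Snhg12*. In *Snhg3* it began 2 bases and in *Snhg5* 9 bases after the annotated start. The run was defined after these sequences were seen, so the shares are not a test. Of all 27025 genes with a promoter in the table, 34.4% held such a run at a start, so the letters are a description of these windows and not evidence of use.

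The 8 genes are short and lie on 6 chromosomes. *Snhg3* and *Snhg12* lie near each other on chromosome 4, on opposite strands, and *Gas5* and *Snhg6* are far apart on chromosome 1. GENCODE M21 places 30 snoRNA gene models inside them: 10 in *Gas5*, 8 in *Snhg1*, 5 in *Snhg12* (*Snora16a*, counted as 2 models, *Snora44*, *Snora61* and *Snord99*), 2 in *Snhg3* (*Snora73a* and *Snora73b*), 2 in *Snhg5* (*Snord50a* and *Snord50b*) and 1 each in *Snhg6* (*Snord87*), *Snhg8* (*Snora24*) and *Snhg15* (*Snora9*). The median FPKM (fragments per kilobase of transcript, relative to all mapped fragments of a library) of every one of the 30 was 0, and the highest single value was 2.24 for *Snora73a*, which was above 0 in 13 libraries. Libraries primed at poly(A) tails do not capture mature snoRNAs, so the values below describe the host RNA alone. The table gives 1 value per gene, so spliced and unspliced RNA could not be separated for any member. In *Snhg1*, *Snhg8* and *Snhg12* the annotated transcripts, with retained introns counted, cover the whole gene. They cover 3760 of 4118 bases in *Gas5* and 1730 of 1880 in *Snhg5*. The libraries do not mark strand. *Snhg3* shares 705 exon bases with *Gm17300* on the opposite strand and 135 with *Rcc1* on its own, and *Snhg6* shares 127 with *Mcmdc2* on the opposite strand, so part of their signal is uncertain.

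The targeted gene followed the labels in all but 2 libraries. *Bin1* was 258.3 ± 21.4 FPKM in male WT (SD, n = 5) and 49.7 ± 6.82 in male Homo (SD, n = 5), but 2 Het libraries lay at the Homo level, the library labelled Het-M-0199 with 51.8 FPKM and the library labelled Het-F-0206 with 42.7 FPKM. Results on Het mice are therefore also given without them. The microglial identity of the sort was clear, as the summed FPKM of 7 microglial markers was between 15832 and 23414, whereas *Cd3e*, a T cell marker, was 0 in every library. *Cx3cr1*, the gene that carries Cre in Het and Homo mice, was among these 7 markers. Markers of other cells summed to 0 to 349 FPKM for neutrophils, 22.9 to 120.5 for oligodendrocytes, 7.65 to 31.7 for border macrophages, 1.59 to 26.6 for astrocytes, 6.71 to 14.9 for endothelial cells, 1.88 to 17.6 for neurons and 0 to 0.670 for lymphocytes. Depth relative to the median library was between 0.669 and 1.41, and absolute depth is unknown.

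All 8 host RNAs were present in every library (the plot of FPKM by library). *Gas5*, whose RNA accumulates in growth-arrested cells, was the most abundant, with 98.4 ± 31.3 FPKM over the 30 libraries (SD), and by itself made up 45.9% to 58.7% of the summed FPKM of the 8. *Snhg3* followed with 40.7 ± 18.2 FPKM. *Snhg5* (14.1 ± 5.22), *Snhg1* (12.2 ± 5.64), *Snhg15* (10.3 ± 5.28) and *Snhg6* (9.92 ± 4.24) came next, and these neighbours differed by less than their spread over libraries. *Snhg8* (5.47 ± 2.27) and *Snhg12* (4.32 ± 1.97) were lowest and also differed by less than their spread. The highest library exceeded the lowest by 2.77-fold for *Gas5*, by 4.02- to 6.07-fold for 6 of the others and by 11.6-fold for *Snhg12*, whose lowest value was 0.811 FPKM in WT-M-0177.

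**Figure D1:**
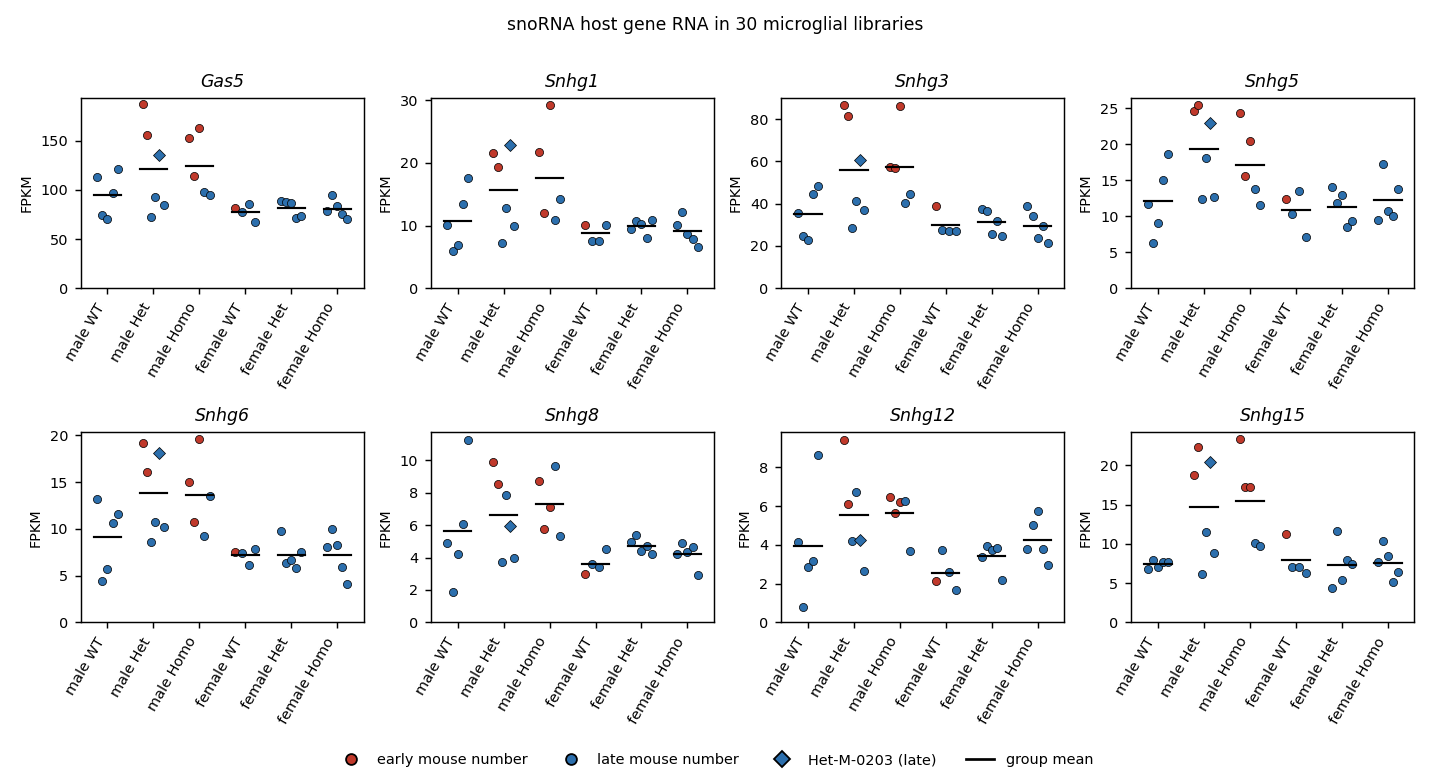
FPKM of the 8 snoRNA host genes in each of the 30 libraries, by group (linear axes from 0; each point is a mouse, bars are group means). Red points are early mouse numbers, blue points late ones, and the diamond is Het-M-0203; the 5 red male points lie high in *Snhg3* and *Snhg15*, between 56.7 and 86.7 and between 17.2 and 23.3 FPKM, while male WT values of *Snhg15* stay between 6.78 and 7.97.

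The host RNAs varied together from mouse to mouse. Pearson's r between pairs of members, of log2 scaled FPKM over the 30 libraries, was between 0.40 (*Snhg12* with *Snhg15*) and 0.89 (*Gas5* with *Snhg3*), with a median of 0.72 over 28 pairs. These libraries share groups, number ranges and depth, so the correlations are descriptions. Ranked by the mean log2 level of the 8, the 5 highest libraries were Het-M-0100, Het-M-0108, Homo-M-0109, Homo-M-0093 and Het-M-0203, of which the first 4 are early and the last is late. WT-M-0258, a late male WT library, was the 6th, and WT-M-0177, another, was the lowest of all. The female early library, WT-F-0122, was the 20th. For *Snhg3* and *Snhg15*, as for *Malat1* and *Neat1*, the 6 highest libraries were exactly the 5 early male ones and Het-M-0203. *Snhg8* and *Snhg12* followed this order less closely, with 3 of their 6 highest libraries among those 6, and the highest *Snhg8* of all, 11.3 FPKM, was in WT-M-0258.

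Of 11614 other genes, those whose log2 levels were most like the mean of the 8 hosts over the 30 libraries were *Izumo4* (r = 0.94), *Rps27a* (0.93), *Rpl10a* (0.93), *Rps24* (0.93) and *Rpl17* (0.92). *Izumo4* encodes a protein of the sperm-egg fusion family, and the other 4 encode ribosomal proteins. *Malat1* stood at rank 20 (r = 0.90) and *Neat1* at rank 75 (r = 0.87) in the same order. For single members, the closest gene was *Rpl17* for both *Snhg1* (r = 0.96) and *Snhg6* (r = 0.90), *Luc7l3*, a splicing factor, for *Gas5* (r = 0.94), *Bcl2a1b*, a BCL2 family survival gene, for *Snhg3* (r = 0.93), and *Gsdmd*, the pore-forming gasdermin D, for *Snhg15* (r = 0.87). The closest to *Snhg8* was *mt-Rnr2*, the large mitochondrial ribosomal RNA (r = 0.86), to *Snhg5* it was *Thap3* (r = 0.87), and to *Snhg12* it was *Apbb1ip* (r = 0.76).

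Comparisons between genotypes were made with limma on log2(scaled FPKM + 0.1), and a gene was called when its Benjamini-Hochberg adjusted p over all 16897 genes was below 0.05 and its fold change above 1.5. In male Homo against male WT mice, 0 of the 8 host genes were called, where 1.81% of all genes were. All 8 fitted differences were positive, from 0.30 for *Gas5* to 0.89 for *Snhg15*, with a median of 0.59 on the log2 scale beside 0.03 for all genes. At an unadjusted limma p under 0.05, 5 of the 8 differed, as did 22.5% of all genes. *Snhg15*, the host of *Snora9*, came nearest to the threshold: its FPKM were 6.78, 7.97, 7.02, 7.65 and 7.73 in male WT and 23.3, 17.2, 17.2, 10.1 and 9.72 in male Homo mice. The groups did not overlap, which was so for no other member and, in the same direction, for 2.56% of all genes. Its fitted difference was 0.89 ± 0.27 (SE), with an adjusted p of 0.0611 (limma), and within male Homo mice the 3 early libraries lay above the 2 late ones. Without Homo-M-0189 the adjusted p of *Snhg15* was 0.0322, and without Homo-M-0190 it was 0.0407 (limma). Those are the 2 late male Homo libraries. Over all genes, 822 and 433 were called in these fits, beside 306 with no library left out. Leaving out the early Homo-M-0093, Homo-M-0097 or Homo-M-0109 gave 77, 159 and 99 calls over all genes. Neutrophil markers moved with these groups, with 43.9 to 349 summed FPKM (median 72.2) in male WT, 0 to 80.8 (median 0.575) in male Homo and 0 to 189.5 (median 12.1) in male Het mice. Border macrophage markers summed to 10.0 to 31.7 FPKM (median 28.1) in male WT, 8.86 to 20.6 (median 14.3) in male Homo and 7.97 to 14.9 in male Het mice. Their part in the host RNA differences between genotypes was not tested.

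*Snhg3*, which carries the H/ACA snoRNAs *Snora73a* and *Snora73b*, was 35.6, 24.9, 22.8, 44.5 and 48.2 FPKM in male WT and 57.5, 56.7, 86.3, 40.3 and 44.8 FPKM in male Homo mice. The 3 early Homo libraries were above every WT library, and the 2 late ones were within the WT range. Its difference was 0.63 ± 0.23 (SE; adjusted p = 0.108, limma). *Gas5* was 113, 74.1, 70.2, 96.99 and 121 FPKM in male WT and 153, 115, 163, 97.4 and 95.3 FPKM in male Homo mice, and the groups overlapped (0.30 ± 0.17, adjusted p = 0.274, limma). *Snhg12* was 4.14, 0.811, 2.87, 3.18 and 8.63 FPKM in male WT, which spans the 5 male Homo values of 6.46, 5.66, 6.22, 6.27 and 3.67 FPKM (0.74 ± 0.36, adjusted p = 0.218, limma). *Snhg1* differed by 0.63, *Snhg5* by 0.46, *Snhg6* by 0.56 and *Snhg8* by 0.47, with overlapping groups.

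In male Het against male WT mice, 0 of the 8 were called, as against 0.154% of all genes, and no member had groups that did not overlap, as 0.515% of all genes had with Het higher. The differences were between 0.23 (*Gas5*) and 0.75 (*Snhg15*, SE 0.26, adjusted p = 0.23, limma), with *Snhg8* at 0.29, *Snhg1* at 0.45, *Snhg3* at 0.54, *Snhg6* at 0.57, *Snhg5* at 0.63 and *Snhg12* at 0.65. They had a median of 0.56 beside 0.01 for all genes, and 4 of the 8 had an unadjusted limma p under 0.05, as had 14.2% of all genes. The lowest, median and highest male Het values were 6.20, 15.1 and 22.3 FPKM for *Snhg15* and 28.6, 51.1 and 86.7 FPKM for *Snhg3*. The early Het-M-0100 and Het-M-0108 and the late Het-M-0203 were the 3 highest Het libraries for both genes, and the other 3 Het libraries were between 6.20 and 11.5 FPKM for *Snhg15*. Without the libraries labelled Het-M-0199 and Het-F-0206 the median was 0.57 and no member was called. The Het and Homo comparisons share their WT libraries, so they are not independent of each other. Between male Homo and male Het mice the differences were -0.18 for *Snhg5*, -0.02 for *Snhg6*, 0.08 for *Gas5* and *Snhg3*, 0.10 for *Snhg12*, 0.14 for *Snhg15* and 0.18 for *Snhg1* and *Snhg8*, and 0 of the 8 were called, as were 0% of all genes. At an unadjusted limma p under 0.05, 0 of the 8 differed, beside 3.85% of all genes. The 95% intervals of these 8 differences reached from -0.63 to 0.80, so moderate differences could not have been seen. Without the 2 doubtful Het libraries they were from -0.17 (*Snhg5*) to 0.26 (*Snhg8*), with no member called.

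The median male difference was smaller among late mice. With the early libraries left out, the median over the 8 hosts was 0.37 in Homo and 0.34 in Het males against WT, and in fits that held the number range as a covariate it was 0.36 and 0.40. *Gas5* then differed by 0.05 in Homo and by 0.00 in Het males among late mice, and *Snhg15* by 0.41 and 0.50. *Snhg8* went the other way in Homo males, with 0.56 among late mice beside 0.47 in all. No member was called in any of these fits, in which the lowest adjusted p was 0.559 (limma). Few genes of any kind were called in them. Among late mice 9 of all genes were called in Homo and 12 in Het males, and with the covariate 35 and 16. Only 2 male Homo libraries were late. The wide spread of male WT mice weighs on the median over all male Homo and WT mice, which was 0.59. It was 0.32 without WT-M-0177 and 0.75 without WT-M-0258, with early mice kept. The fits of late mice were not repeated in this way.

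In female mice the host RNAs were more even than over all 30 libraries. Of the female mice only WT-F-0122 had an early number, and all other early mice were male. Sex and number range are therefore not separated in these values. Over the 14 female libraries *Gas5* was between 67.8 and 94.7 FPKM, with a coefficient of variation of 9.80%, beside 31.9% over all 30. The other 7 varied by 17.2% to 32.2% in females and by 36.9% to 51.3% over all 30. Among female Homo against female WT mice, 0 of the 8 were called (0.071% of all genes), with differences from -0.06 (*Snhg15*) to 0.74 (*Snhg12*) and a median of 0.03 beside 0.00 for all genes. *Snhg6* differed by -0.06, *Snhg3* by -0.04, *Snhg1* by 0.02, *Gas5* by 0.05, *Snhg5* by 0.18 and *Snhg8* by 0.20. *Snhg12* was 2.13, 3.73, 2.61 and 1.66 FPKM in female WT and 3.78, 5.03, 5.77, 3.78 and 2.93 FPKM in female Homo mice. Its highest WT value lay above the lowest Homo value, and its difference had a 95% interval from -0.04 to 1.52 (adjusted p = 1, limma). At an unadjusted limma p under 0.05, 0 of the 8 differed between female Homo and WT mice, beside 3.49% of all genes. In female Het against female WT mice, 0 of the 8 were called (0.13% of all genes), with differences from -0.15 (*Snhg15*) to 0.44 (*Snhg12*) and a median of 0.07, and 0 of the 8 had an unadjusted limma p under 0.05, beside 3.95%. *Snhg6* differed by -0.03, *Snhg3* by 0.05, *Gas5* by 0.06, *Snhg5* by 0.08, *Snhg1* by 0.16 and *Snhg8* by 0.38. Between female Homo and female Het mice, 0 of the 8 were called (0.0118% of all genes), and 0 of the 8 passed the unadjusted limma p, beside 2.06%. The differences were -0.18 for *Snhg8*, -0.14 for *Snhg1*, -0.09 for *Snhg3*, -0.03 for *Snhg6*, -0.02 for *Gas5*, 0.09 for *Snhg15*, 0.10 for *Snhg5* and 0.31 for *Snhg12*. Without the libraries labelled Het-F-0206 and Het-M-0199, female Het against WT mice differed by -0.33 (*Snhg15*) to 0.38 (*Snhg12*) and female Homo against Het mice by -0.14 (*Snhg8*) to 0.36 (*Snhg12*), with no member called. *Snhg15* was 11.3, 7.09, 7.07 and 6.29 FPKM in female WT mice, the first of these being the early mouse WT-F-0122, and between 4.44 and 11.6 FPKM in female Het mice, of which the highest was the library labelled Het-F-0206.

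Whether these differences depended on sex was tested as an interaction. For the Homo effect, 0 of the 8 were called (0% of all genes), and *Snhg15* had the largest difference of the 8, 0.95 ± 0.39 (SE) higher in males, with an unadjusted p of 0.021 and an adjusted p of 0.525 (limma). Its value was 0.31 among late mice and also 0.31 in the fit that held the number range as a term. The other sex differences were 0.67 for *Snhg3*, 0.62 for *Snhg6*, 0.61 for *Snhg1*, 0.28 for *Snhg5*, 0.27 for *Snhg8*, 0.26 for *Gas5* and 0.00 for *Snhg12*. At that unadjusted level 1 of the 8 differed, beside 9.29% of all genes. For the Het effect, 0 of the 8 were called (0% of all genes), and *Snhg15* differed by 0.91 ± 0.38 (SE; adjusted p = 0.86, limma), the 1 of the 8 with an unadjusted p under 0.05, beside 4.53% of all genes. It was 0.49 among late mice, 0.46 with the covariate and 1.11 without the libraries labelled Het-F-0206 and Het-M-0199 (adjusted p = 0.713, limma), where the other 7 were between -0.13 (*Snhg8*) and 0.60 (*Snhg6*) and no member was called. With all libraries the others were 0.60 for *Snhg6*, 0.56 for *Snhg5*, 0.50 for *Snhg3*, 0.29 for *Snhg1*, 0.21 for *Snhg12*, 0.17 for *Gas5* and -0.09 for *Snhg8*. With late mice alone the median sex difference over the 8 fell from 0.45 to 0.26 for Homo and from 0.40 to 0.08 for Het. Female and male WT mice did not differ by a call in any of the 8 (0.0473% of all genes), with differences from -0.41 (*Snhg8*) to 0.06 (*Snhg15*) and 0 of the 8 at an unadjusted limma p under 0.05, beside 2.91%. *Snhg12* differed by -0.33, *Gas5* by -0.25, *Snhg6* by -0.21, *Snhg1* by -0.18, *Snhg3* by -0.17 and *Snhg5* by -0.10.

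**Figure D2:**
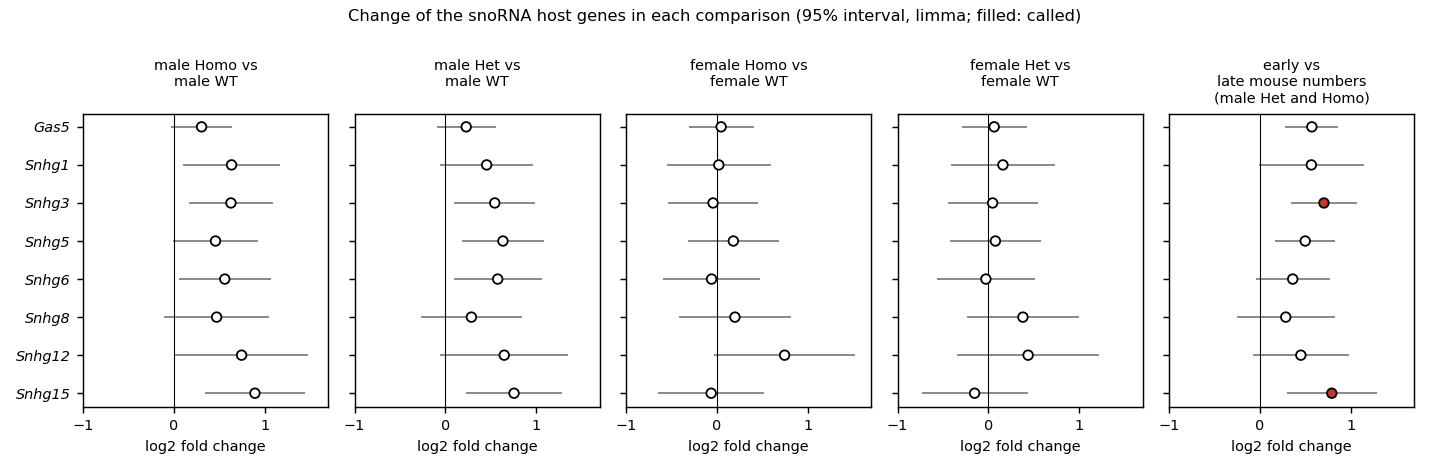
Log2 fold change of each host gene with its 95% interval in 5 comparisons (limma; points are estimates, lines intervals, filled points are called). In males the 8 estimates lie from 0.30 to 0.89 for Homo and from 0.23 to 0.75 for Het against WT with none called, in females they lie from -0.06 to 0.74 and from -0.15 to 0.44, also with none called, and *Snhg3* and *Snhg15* are the 2 called between early and late mouse numbers.

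The number ranges were then compared within male Het and Homo mice, 5 early against 6 late, with genotype as a term. *Snhg3* and *Snhg15* were raised in the early mice, 2 of the 8, beside 5.96% of all genes raised and 7.42% called in either direction. *Snhg3* was 86.7, 81.5, 57.5, 56.7 and 86.3 FPKM in Het-M-0100, Het-M-0108, Homo-M-0093, Homo-M-0097 and Homo-M-0109, and between 28.6 and 60.7 FPKM, with a median of 40.9, in the 6 late mice. Its difference was 0.70 ± 0.16 (SE; adjusted p = 0.0268, limma). *Snhg15* was 18.8, 22.3, 23.3, 17.2 and 17.2 FPKM in the same early mice and between 6.20 and 20.4 FPKM, with a median of 9.90, in the late mice (0.79 ± 0.23, adjusted p = 0.0409, limma). In both genes the only late value that reached the early range was that of Het-M-0203, with 60.7 FPKM of *Snhg3* and 20.4 FPKM of *Snhg15*. The next highest late values were 44.8 and 11.5 FPKM, below all early ones.

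*Gas5* and *Snhg5*, the host of *Snord50a* and *Snord50b*, passed the adjusted p but not the fold change. *Gas5* was 188, 155, 153, 115 and 163 FPKM in the early mice and between 72.4 and 136 FPKM, with a median of 94.0, in the late mice (0.57 ± 0.13, adjusted p = 0.0265, limma). *Snhg5* was 24.6, 25.5, 24.3, 15.6 and 20.5 FPKM in the early and between 11.6 and 23.0 FPKM in the late mice (0.50 ± 0.15, adjusted p = 0.0472, limma). Of all genes, 14.6% passed the adjusted p. *Snhg1* differed by 0.57 ± 0.26, *Snhg12* by 0.45 ± 0.24, *Snhg6* by 0.36 ± 0.19 and *Snhg8* by 0.28 ± 0.25 (SE), with adjusted p between 0.155 and 0.439 (limma). At an unadjusted limma p under 0.05, 4 of the 8 differed, beside 33.8% of all genes. The median of the 8 was 0.53 beside 0.10 for all genes, of which the upper 10% began at 0.86, above each of the 8. No member was free of overlap between the ranges, beside 4.57% of all genes that were free of it and higher in early mice.

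These calls rested on few libraries. When each of the 11 libraries was left out in turn, *Snhg3* was called in 5 and *Snhg15* in 2 of the 11 fits, with differences of 0.62 to 0.77 and 0.67 to 0.92. Without Het-M-0203, 4 of the 8 were called (*Gas5*, *Snhg1*, *Snhg3* and *Snhg15*) and the calls over all genes went from 1253 to 2409. Without Het-M-0100, Het-M-0108, Het-M-0210, Homo-M-0109, Homo-M-0189 or Homo-M-0190, 0 of the 8 were called, and without Het-M-0197, Het-M-0199 or Homo-M-0093, 1 was. Without Homo-M-0097, 3 were called. Over all genes, 1 gene was called without Het-M-0100, 2 without Homo-M-0189 and 3 without Het-M-0108. The counts over all genes were 360 without Het-M-0210, 419 without Homo-M-0190 and 546 without Homo-M-0109. They were 289 without Homo-M-0093, 591 without Het-M-0197, 623 without Het-M-0199 and 1663 without Homo-M-0097. Within each genotype, *Snhg15* was higher in early mice by 0.77 in Het and 0.81 in Homo, and *Snhg3* by 0.89 and 0.50, while *Snhg8* was higher by 0.67 in Het and differed by -0.14 in Homo. Without scaling between libraries the median of all genes was 0.23 and that of the 8 hosts 0.68, with 96.5% of all calls raised in place of 80.4%, and after quantile normalization these medians were -0.04 and 0.52. All 8 hosts were positive under each scaling.

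Set against *Malat1* and *Neat1*, the host RNAs had differences of the same sign between the ranges, with smaller fitted values. *Neat1* was raised in early mice by 1.14 ± 0.19 (SE; adjusted p = 0.0208, limma), from 19.4 ± 7.43 to 44.1 ± 7.79 FPKM (SD, n = 6 and n = 5). *Malat1* was raised by 1.05 ± 0.32 (adjusted p = 0.0497, limma), from 4880 ± 1973 to 10732 ± 1804 FPKM. *Kcnq1ot1*, the antisense RNA of an imprinted domain, differed by 0.39 and *Meg3* by 0.64, neither called, and the other 3 of 7 listed nuclear RNAs were below the filter. In male Homo against male WT mice *Malat1* differed by 0.93 ± 0.30 and *Neat1* by 0.67 ± 0.27 (SE; adjusted p = 0.0765 and 0.139, limma), neither called. The 95% intervals of *Snhg3* (0.34 to 1.07) and *Snhg15* (0.30 to 1.28) overlapped those of *Neat1* (0.73 to 1.56) and *Malat1* (0.34 to 1.75), and a difference between hosts and nuclear RNAs was not tested. The mouse WT-F-0122, early and female, had 38.7 FPKM of *Snhg3*, 11.3 of *Snhg15* and 21.9 of *Neat1*, each the highest of the 4 female WT libraries, and 2.96 of *Snhg8*, the lowest.

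**Figure D3:**
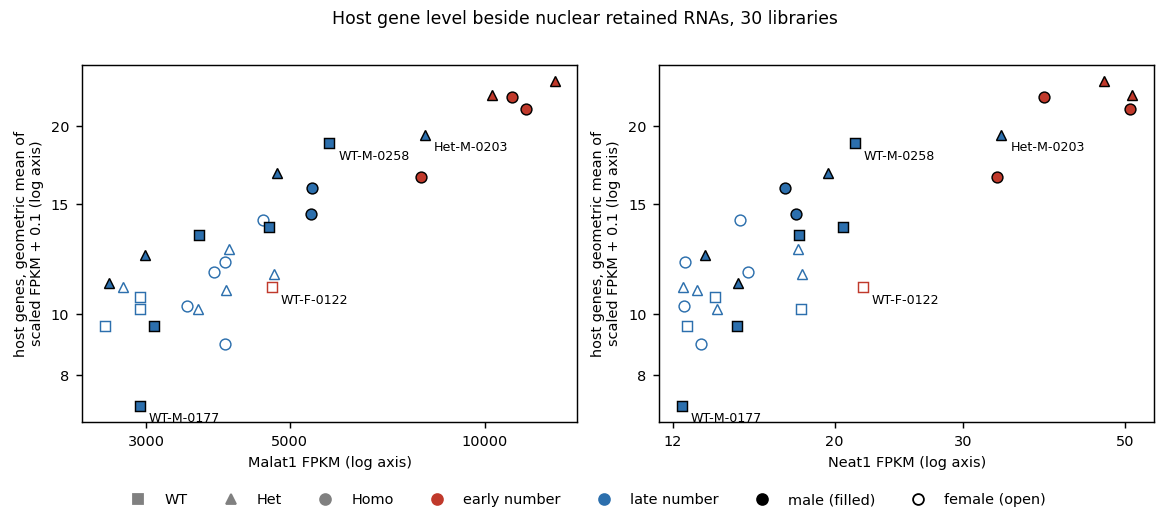
Geometric mean of the 8 host RNAs (scaled FPKM + 0.1) against *Malat1* (left) and *Neat1* (right) FPKM in the 30 libraries, all axes logarithmic; shapes are genotypes, red is early, blue late, filled male and open female. The 5 early male libraries and Het-M-0203 hold the 6 highest *Malat1* and *Neat1* values, and the late WT-M-0258 has a host level above that of the early Homo-M-0097 with less *Malat1* and *Neat1*.

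Other noncoding hosts had values much like those of the 8. Of 10 such genes found, 9 were tested, and all 9 were positive in early against late mice. *Snhg20* (0.95 ± 0.22) and *Snhg9* (0.77 ± 0.23) were raised (adjusted p = 0.026 and 0.0438, limma), with a list median of 0.60. Of all genes, 5.96% were raised between the ranges and 7.42% were called in either direction. After quantile normalization 8 of the 9 were positive. In male Homo against male WT mice, where 1.81% of all genes were called, 1 of the 9, *Snhg17*, was raised by 0.72 ± 0.20 (SE; adjusted p = 0.044, limma). It was 11.9 ± 4.25 FPKM in male Homo and 6.51 ± 0.869 FPKM in male WT mice (SD, n = 5 each). The groups did not overlap, as for 2.56% of all genes in this direction. Without scaling *Snhg17* differed by 0.80 with an adjusted p of 0.0503 (limma). Hosts that encode proteins, most of them ribosomal proteins and translation factors, had differences of both signs. Of 25 tested, 10 were positive between the ranges, with a median of -0.07, or 15 with a median of 0.08 without scaling. *Rpl5* (0.93 ± 0.24) and *Eif4a2* (0.73 ± 0.19) were raised and *Nop58* was lowered in early mice (adjusted p = 0.031, 0.0327 and 0.0219, limma), under each scaling. With Het-M-0100, Homo-M-0189 or Het-M-0108 left out, however, only 1, 2 and 3 of all genes were called between the ranges. Taken over all lists together, most calls between early and late mice given here were therefore lost in each of those fits. The lists other than the 8 hosts were not followed 1 by 1. In male Homo against male WT mice 1 of the 25, *Hspa8*, which encodes a constitutive chaperone, was lowered (-0.91 ± 0.18, SE; adjusted p = 0.0075, limma).

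*Nop58* also encodes a core protein of box C/D snoRNPs, the particles in which these snoRNAs act. It was 14.9 ± 2.35 FPKM in early and 22.0 ± 2.76 FPKM in late male Het and Homo mice (SD, n = 5 and n = 6), a difference of -0.73 ± 0.15 (SE). It was the only 1 of 8 snoRNP core proteins called, beside 7.42% of all genes, and their median was -0.05, or 0.09 without scaling. Of 10 factors of NMD, which degrades several host RNAs, 3 were raised in early mice and 0 lowered, beside 5.96% of all genes raised. These were *Upf3b* (0.69 ± 0.14), *Smg1* (0.67 ± 0.17) and *Smg5* (0.66 ± 0.15), with adjusted p between 0.023 and 0.031 (limma). *Upf1*, the central helicase of this decay, differed by 0.07 ± 0.10 (adjusted p = 0.633, limma). No NMD factor or snoRNP protein was called in male Homo or male Het against male WT mice.

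**Figure D4:**
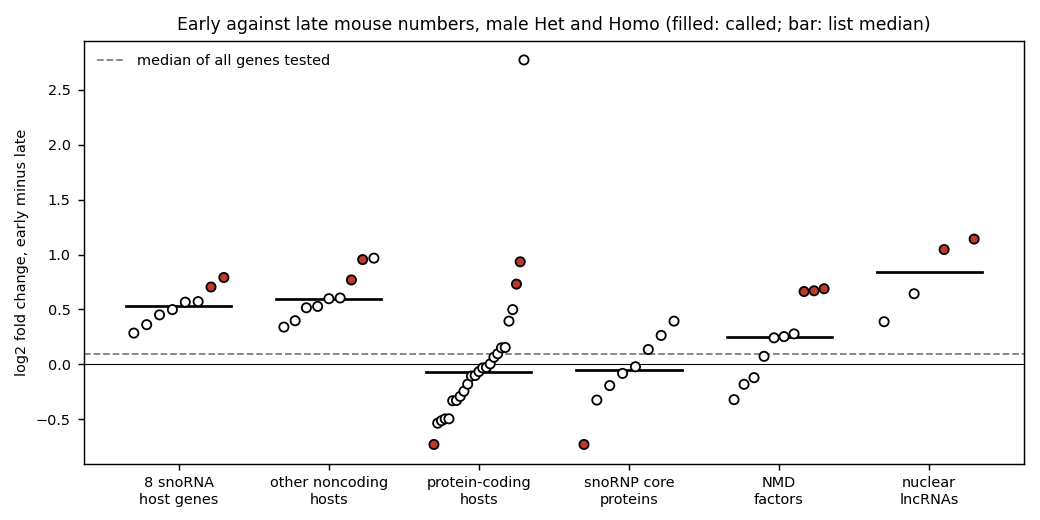
Log2 fold change, early minus late mouse numbers, of every tested gene of 6 lists in male Het and Homo mice (limma; bars are list medians, filled points are called, the dashed line is the median of all genes). The 8 hosts and the 9 other noncoding hosts lie above 0, with medians of 0.53 and 0.60, whereas the 25 protein-coding hosts are spread on both sides of 0; the highest point among these is *Rps12* (2.77), not called.

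Several library measures moved with the number range. Among male Het and Homo mice, relative depth was 0.669 to 0.921 in the early and 0.727 to 1.41 in the late libraries, and Het-M-0203 had the 0.727. The number of genes at 1 FPKM or more was 11874 to 12557 in the early and 11193 to 12237 in the late libraries, and the share of FPKM in mitochondrial genes was 1.21% to 2.27% and 1.08% to 1.78%. The 7 microglial markers summed to 15832 to 21182 FPKM in the early and 18217 to 23304 FPKM in the late libraries. The 4 astrocyte markers summed to 2.43 to 26.6 and 1.88 to 7.25 FPKM, the 4 oligodendrocyte markers to 32.2 to 120 and 26.7 to 43.8 FPKM, the 4 border macrophage markers to 13.7 to 20.6 and 7.97 to 12.1 FPKM, and the 7 neutrophil markers to 0.0923 to 189.5 and 0 to 13.0 FPKM. The part of these measures in the host RNA levels was not tested, and in sorted bulk RNA fewer cells of a type and less RNA per cell cannot be told apart.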

How the data were processed

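RNA of FACS-sorted microglia was sequenced by the authors from SMARTer Ultra Low v4 and Nextera XT libraries, which prime at poly(A) tails and do not mark strand. The deposited protocol text speaks of microglia in culture and of another kit, whereas the methods of the paper were relied on here. The authors aligned reads with OSA4 to mm10 and an Ensembl gene model, estimated abundance with RSEM, left out 6 samples and deposited FPKM per gene. The DESeq2 test named in the submitters' processing notes needs counts, which were not analysed here. Values in 6 further columns have no sample in the labels and were left out.

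Median-of-ratios factors from 11436 genes (mean FPKM 1 or more) scaled the libraries. All genes whose mean FPKM reached 0.1 entered limma 3.58.1 (R 4.3.3) on log2(scaled FPKM + 0.1) with an intensity trend and Benjamini-Hochberg adjustment over all genes. A fold change on this scale understates that of low genes. All 30 libraries shared 1 estimate of the spread, except for early against late mouse numbers, fitted within male Het and Homo mice. FPKM printed per library are as deposited. The fits were tested on simulated data in which each gene varied independently. Variation shared between genes within a library was therefore not part of that test. Relative depth was estimated from the steps between FPKM of low genes, and since absolute depth is unknown, no counting error is given.

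The members, the other gene lists and the comparisons were chosen with earlier results of these data known, and the motif was defined after the start sequences were seen. In each comparison all members are named, and from each other list at most 3 called genes with the largest change, or at most 2 with the smallest p where none was called. *Kcnq1ot1*, *Meg3*, *Rps12* and *Upf1* were named outside this rule, after their values were seen. Of 13 other noncoding hosts listed, *Snhg4*, *Snhg7* and *Snhg10* were not matched by symbol. Gene models are those of GENCODE M21 on GRCm38, and start sequences those of RefSeq on GRCm38.p6. Alternatives were pseudocounts of 1 and 0.01, a filter at a mean FPKM of 1 and none, no scaling, quantile normalization, weights per library, fits restricted to the compared groups, the number range as a covariate, late mice alone, no fold threshold and each library left out.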

Additional observations from a re-analysis of the deposited data

Results flagged for a closer look

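Of 48 groups of a member's FPKM values (8 genes in 6 groups), 3 held a library that stood far from the rest of its group, where chance gives about 1 in 20. The count of 3 is near that rate, and 2 of the 3 flags come from the same library, WT-F-0122. In female WT mice, WT-F-0122 had 38.7 FPKM of *Snhg3*, while the other 3 libraries were between 26.9 and 27.4 FPKM. The same library had 11.3 FPKM of *Snhg15*, with the other 3 between 6.29 and 7.09 FPKM. It is the only female mouse with an early number, and it was not part of the comparison of early and late males, in which *Snhg3* and *Snhg15* were the 2 members called. With all 30 libraries and the 6 groups as a term, a fit added after the data were seen, *Snhg3* was higher in early mice by 0.65 and *Snhg15* by 0.76 (adjusted p = 0.00448 and 0.00454, limma). This fit includes WT-F-0122 itself and the same male Het and Homo libraries as the comparison of early and late males. It is therefore independent neither of that comparison nor of the flag. Of 16897 genes, 1304 were called in it. *Gas5* passed the adjusted p (0.00692, limma) with a difference of 0.45, below the fold threshold, and the other 5 members differed by 0.12 (*Snhg8*) to 0.49 (*Snhg1*), not called. In male Homo mice, Homo-M-0190 had 3.67 FPKM of *Snhg12*, while the other 4 libraries were between 5.66 and 6.46 FPKM.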

How the results depend on the processing

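The median difference of the 8 host genes kept its sign in male Homo (0.32 to 0.75) and male Het (0.32 to 0.67) against WT mice and between early and late mice (0.45 to 0.68) under every alternative run. In male Homo against WT mice, 1 member, *Snhg15*, was called with a filter at a mean FPKM of 1 and with array weights, and 0 to 1 with a library left out. Between early and late mice, 0 members were called with no filter on low values, 3 with quantile normalization and 4 with no scaling. With array weights 4 were called, and with no fold threshold 4. The count was 0 without the libraries labelled Het-F-0206 and Het-M-0199 (added after the data were seen), and 0 to 4 with a library left out. The cause was not tested. No alternative changed how many members were called in the other 8 comparisons, where that number was 0. Over all genes, male Homo against WT mice gave 306 calls as reported, 186 with no filter, 480 with array weights, 44 with only the groups compared, 35 with the number range as a covariate, 9 among late mice, 477 with no fold threshold and 77 to 822 with a library of either group left out. Early against late mice gave 1253 calls as reported, 67 with no filter, 2234 with array weights, 2459 with no fold threshold, 590 without the libraries labelled Het-F-0206 and Het-M-0199, and 1 to 2409 with a library left out. With quantile normalization 67.4% of these calls were raised, with no scaling 96.5%, and as reported 80.4%. No paired analysis was possible because each replicate carries its own mouse number and no number is shared between groups. Absolute depth is unknown, so the counting error of low values, such as those of *Snhg12*, is not given.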
